A study of Mus musculus with 30 samples.

Results

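The genes described here are the Wnt ligands (Wnt), their Frizzled receptors (Fzd), the co-receptors Lrp5 and Lrp6, the secreted Frizzled-related proteins (Sfrp) and the R-spondins (Rspo) of the mouse colon. They were taken from the whole count table by gene symbol. This rule found 39 genes among the 31023 genes of the table, of which 19 are Wnt ligands, 10 Frizzled receptors, 4 Sfrp genes, 4 R-spondins and 2 Lrp co-receptors. Of these, 35 had enough counts to be tested, and Wnt1, Wnt2, Wnt3a and Wnt8a did not. Without the tumor libraries 33 would have passed the filter, because Rspo4 and Wnt7a passed only through the tumors, so counts over the tested genes, and the tests of those 2 genes in tumors, are descriptive.

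At day 56, RNA of colon tissue was sequenced in 10 groups of 3 samples from male mice on the C57BL/6 background, of which some were wild type (WT) and others lacked Smox (Smox-/-). Smox encodes spermine oxidase, the enzyme that turns spermine into spermidine. The tumor groups were tumors of Smox-/- mice given azoxymethane and dextran sulfate sodium (AOM-DSS) and tumors of WT mice given AOM-DSS and spermidine. The AOM-DSS non-tumor groups were Smox-/- with spermidine, WT with spermidine, Smox-/- without spermidine and WT without spermidine. The remaining groups had no AOM-DSS and were Smox-/- with spermidine, WT with spermidine, Smox-/- untreated and WT untreated. AOM is a carcinogen, injected once at 12.5 mg/kg, and DSS is a colitis agent, given at 4% in the drinking water for 5 days from days 5, 26 and 47. Together they form a chemical model of colitis-associated colon cancer. Spermidine was given at 14 mM in the drinking water. The mice were bred in house and were 8 to 12 weeks old. Tumors of WT mice without spermidine and of Smox-/- mice with spermidine are not analysed here, so the tumor groups differ from each other in both genotype and spermidine. How much of Smox is removed in these mice, and whether samples came from separate mice, is not in the labels, so p-values measure only the spread between these samples.

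The 30 libraries held 33060607 to 81011304 counts, and 3 counts corresponded to 0.0386 to 0.0952 CPM (counts expressed relative to how many the library held). Smox itself was at 18.6 to 68.7 CPM (median 28.7) in the 15 Smox-/- libraries, against 25.1 to 169 CPM (median 48.2) in the 15 WT libraries, and the ranges overlapped. Some libraries stood apart from the rest of their groups in marker genes. WT untreated replicate 3 had a summed skeletal muscle marker level of 9899 CPM, against 30.7 and 38.2 CPM in the other untreated WT libraries, and 21.7% of its counts were mitochondrial. The summed Paneth cell marker level was 587 CPM in replicate 1 of the Smox-/- AOM-DSS spermidine non-tumor group, against 7.92 and 13.4 CPM in the others of that group. Smox-/- untreated replicate 3 had a summed squamous epithelium marker level of 2709 CPM, against 6.22 and 108 CPM. Within the Smox-/- tumors, replicate 3 had a summed smooth muscle level of 1014 CPM, against 73.0 and 108 CPM, and a Paneth cell level of 332 CPM, against 2386 and 1967 CPM.

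Wnt proteins are lipid-modified secreted ligands that bind a Frizzled receptor together with Lrp5 or Lrp6, which stops the degradation of beta-catenin and lets it switch on target genes with Tcf factors. Sfrp proteins bind Wnt ligands outside the cell and can block them, and R-spondins bind Lgr receptors and protect Frizzled receptors from removal by the ligases Rnf43 and Znrf3. In the intestine this pathway keeps crypt stem cells dividing, and mesenchymal cells around the crypts are a known source of Wnt ligands and of R-spondins.

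To show what lies upstream of ligands that differed between tumor and non-tumor tissue, the 250 bases before the RefSeq start of Wnt6 (chr1:74771642-74771891, plus strand), Wnt16 (chr6:22287977-22288226, plus strand), Wnt10b (chr15:98778151-98778400, minus strand) and an internal start of Wnt5b (chr6:119449387-119449636, minus strand, inside the gene as annotated but in no annotated exon) are given 5′ to 3′ in the GRCm38 build. Capitals mark a match to CTTTGAT, a Tcf-type motif that was searched on both strands (ATCAAAG on the other).
Wnt6: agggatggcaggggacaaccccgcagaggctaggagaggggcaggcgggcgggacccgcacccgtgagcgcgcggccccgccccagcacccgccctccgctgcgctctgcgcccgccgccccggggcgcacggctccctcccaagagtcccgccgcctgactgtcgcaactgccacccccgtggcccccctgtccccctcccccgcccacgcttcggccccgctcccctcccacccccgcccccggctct
Wnt16: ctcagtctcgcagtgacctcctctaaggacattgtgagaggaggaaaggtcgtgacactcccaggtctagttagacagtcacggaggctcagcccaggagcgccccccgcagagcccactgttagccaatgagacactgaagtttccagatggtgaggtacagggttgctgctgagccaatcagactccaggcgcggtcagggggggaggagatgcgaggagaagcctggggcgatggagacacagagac
Wnt10b: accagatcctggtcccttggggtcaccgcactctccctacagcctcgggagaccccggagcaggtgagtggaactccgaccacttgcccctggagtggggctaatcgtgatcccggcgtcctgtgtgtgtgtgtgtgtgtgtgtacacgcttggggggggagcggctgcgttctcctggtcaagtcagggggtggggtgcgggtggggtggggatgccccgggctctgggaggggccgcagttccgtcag
Wnt5b: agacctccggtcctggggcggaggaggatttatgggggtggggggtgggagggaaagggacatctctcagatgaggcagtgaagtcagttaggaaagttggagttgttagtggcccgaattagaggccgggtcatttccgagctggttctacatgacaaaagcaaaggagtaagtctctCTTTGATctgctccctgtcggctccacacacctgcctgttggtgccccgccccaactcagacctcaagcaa
The windows of Wnt6 and Wnt10b were 79.6% and 66.8% G or C, against a median of 52.4% over all promoter windows of this length, and held 28 and 14 CpG pairs, against a median of 6. Wnt16 was at 59.2% with 9 CpG pairs, and the Wnt5b window at 55.6% with 7. RefSeq windows were matched for 25 of the 39 genes, giving 28 windows. The motif was found in 2 of these 28 windows (7.14%), against 1053 of all 32851 windows (3.21%). Its match in the printed Wnt5b window began 71 bases before that internal start. Other Wnt5b windows held 0 matches, at chr6:119467212-119467461 and at chr6:119544348-119544597, directly before the annotated start of the gene. The other match was in a window of Wnt11, which was not called in tumors over both pairs. Among the genes higher in tumors it was in 1 of 14 windows, and among those lower in 0 of 3, so most of the genes that differed did not hold these letters in these 250 bases.

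Levels between genes were compared only as CPM per kilobase of merged exons (CPM per kb). Over all libraries Fzd5 had the highest mean level of the Frizzled genes, at 16.9 CPM per kb, and Lrp5 was at 12.6 CPM per kb. Among the ligands Wnt6 had the highest mean, at 8.05 CPM per kb, which came from the tumors, since Wnt6 was first in both tumor groups and in 2 of the 8 non-tumor groups, and Wnt4, Wnt5a or Wnt8b in the others. Sfrp1 averaged 1.89 CPM per kb over all libraries, although Sfrp2 was the first Sfrp gene in 6 of the 10 groups. Rspo3 averaged 0.545 CPM per kb and was the first R-spondin in 8 of the 10 groups. The ligands differed between the tumor and non-tumor groups by far more than the receptors did when each family was summed. The summed ligand level was 48.6, 102 and 6.59 CPM per kb in the Smox-/- tumors, and 127, 36.8 and 71.6 CPM per kb in the WT spermidine tumors. Apart from the Smox-/- AOM-DSS spermidine non-tumor group, whose libraries had 24.3, 2.36 and 3.95 CPM per kb, the non-tumor group means lay between 3.20 and 6.83 CPM per kb. Single libraries of these other groups lay above Smox-/- tumor replicate 3. They were Smox-/- untreated replicate 3 (11.1), WT untreated replicate 3 (8.28) and WT AOM-DSS non-tumor replicate 1 (7.11 CPM per kb). The summed Frizzled level was 43.8 ± 6.46 CPM per kb in the Smox-/- tumors, against 38.4 ± 2.0 CPM per kb in their AOM-DSS non-tumor tissue, and 37.5 ± 1.15 CPM per kb in the WT spermidine tumors, against 40.1 ± 1.61 CPM per kb in theirs (SD, n = 3 each). The sums of the ligands and of the Frizzled genes were not tested.

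**Figure D1:**
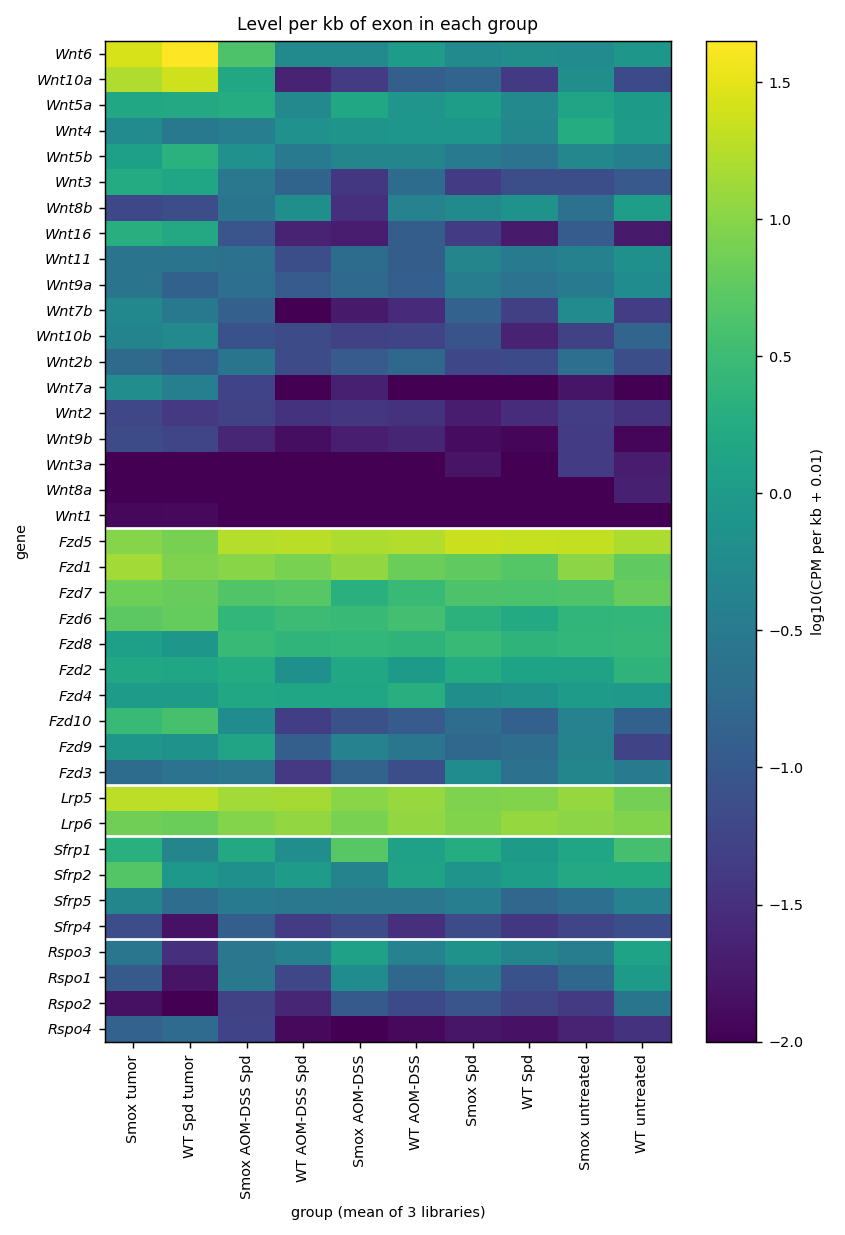
Heat map of the group mean level of each gene in the 10 groups, as log10 of CPM per kb plus 0.01, with the tumor groups first. Wnt6 and Wnt10a are bright in both tumor groups, while Fzd5 and Lrp5 are bright in every group.

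Composition within the families also differed. Wnt6 and Wnt10a together made up 77.7%, 86.9% and 45.4% of the summed ligand level in the Smox-/- tumors, against 15.8 ± 2.69% in Smox-/- AOM-DSS non-tumor tissue (SD, n = 3). They made up 91.0%, 83.1% and 87.4% in the WT spermidine tumors, against 17.6 ± 5.59% in WT AOM-DSS spermidine non-tumor tissue. Fzd5 was the first Frizzled gene by share in each of the 8 non-tumor groups, with 41.4% of the summed level in Smox-/- AOM-DSS non-tumor tissue. In the tumors Fzd1 came first, at 31.5% in Smox-/- and 23.5% in WT, and Fzd5 second, at 22.3% and 21.5%. Lrp5 was 73.0% of the Lrp5 and Lrp6 level in the Smox-/- tumors, against 54.6% in Smox-/- AOM-DSS non-tumor tissue.

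The tumors of each genotype were compared with the AOM-DSS non-tumor tissue of the same genotype and drinking water. A gene was called where the adjusted p of edgeR's quasi-likelihood test, with Benjamini-Hochberg adjustment over 19558 genes, was under 0.05. In Smox-/- mice, 13 of the 35 tested genes were higher in tumors and 3 lower, which is 45.7% of the tested genes, against 24.6% of all genes tested (11.4% higher and 13.2% lower). In WT mice with spermidine, 13 were higher in tumors and 6 lower, or 54.3%, against 34.4% of all genes (16.9% higher and 17.5% lower). Over both pairs together, with 6 tumors against 6 non-tumor samples, 17 were higher and 7 lower, or 68.6%, against 47.3% (23.5% higher and 23.9% lower). Without Rspo4 and Wnt7a, the other 33 genes gave 11 higher and 3 lower in Smox-/-, 11 and 6 in WT, and 15 and 7 over both pairs. The median log2 fold change of the tested genes was 0.78 in Smox-/-, 0.77 in WT and 0.83 over both pairs, against −0.01, 0.01 and 0.00 over all genes. In bulk tissue, fewer cells of a type and less RNA per cell cannot be told apart.

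Single libraries moved these counts. How many of all genes were called with a library left out was not counted, so those counts have no background. In Smox-/- mice the count of 16 fell to 6 without tumor replicate 2 and to 10 without tumor replicate 1, and was 19 without tumor replicate 3. Without non-tumor replicate 1, 2 or 3 it was 10, 8 or 8. In WT mice the count of 19 was 12 without non-tumor replicate 2, 13 without non-tumor replicate 3 and 14 without tumor replicate 1. In the Smox-/- tumors, replicate 2 was the highest in 13 of the 17 genes that were higher over both pairs, and replicate 3 in 1. The tumor comparisons of the 2 genotypes used no sample in common. Called higher in both were 10 genes, or 76.9% of the 13 in each, namely Wnt3, Wnt6, Wnt7a, Wnt7b, Wnt10a, Wnt10b, Wnt16, Fzd6, Fzd10 and Rspo4. Called lower in both were Fzd5, Fzd8 and Rspo2, which are 100% of the 3 in Smox-/- and 50% of the 6 in WT. The sign of the fold change was shared by 31 of the 35 genes. How many of all genes shared calls or signs between the pairs was not counted, so these shares have no background. Rspo4 and Wnt7a, which are among the shared genes, passed the filter only through the tumors.

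**Figure D2:**
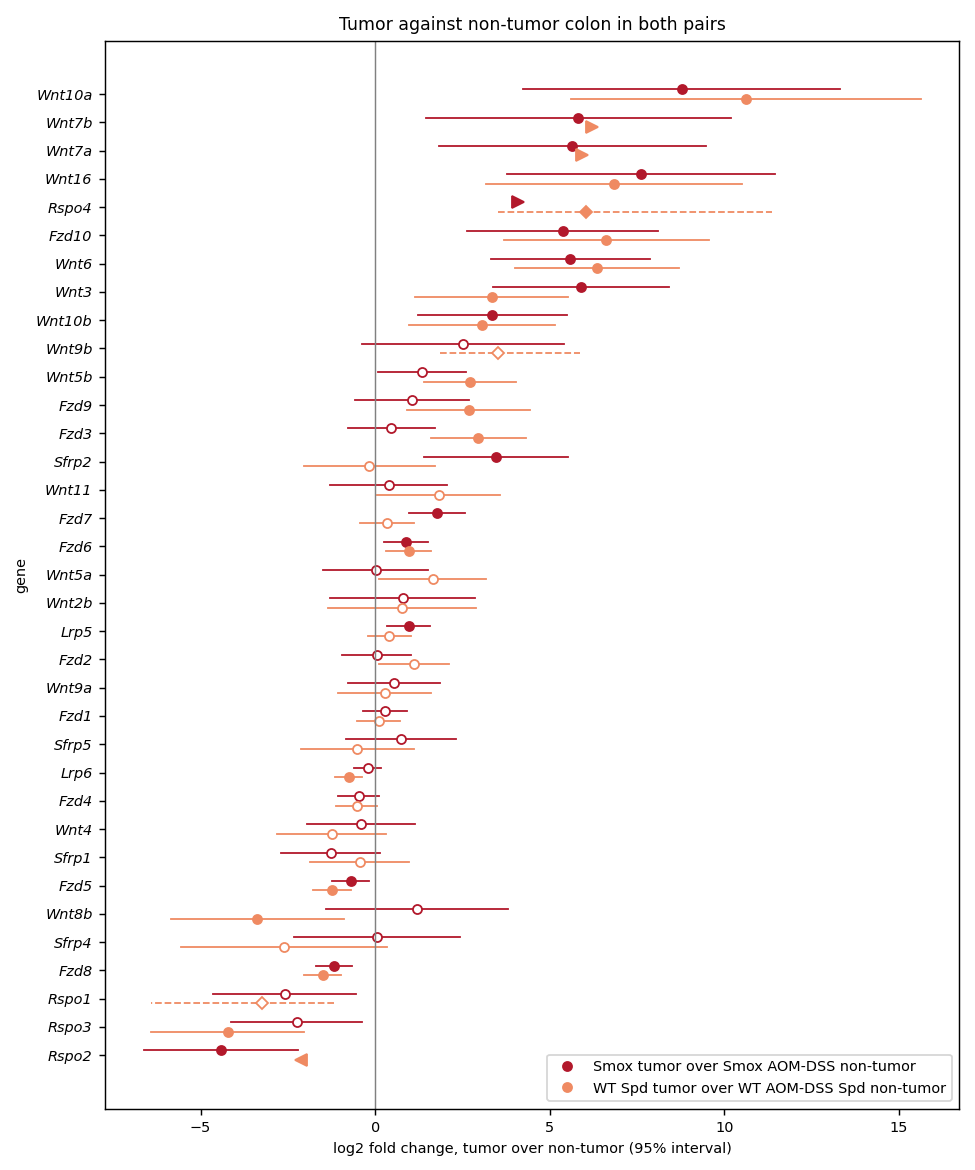
log2 fold change of each gene in tumors over AOM-DSS non-tumor tissue in Smox-/- mice (dark red) and in WT mice with spermidine (orange), with 95% intervals. Filled points passed an adjusted p of 0.05 and hollow ones did not; triangles are lower bounds where a group had 0 counts and diamonds with dashed lines are ratios of 1 to 3 counts with counting intervals. Wnt10a lies farthest to the right, and Rspo1, Rspo2, Rspo3, Fzd5 and Fzd8 lie left of 0 in both genotypes.

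Several kinds of marker genes moved with the tumor comparisons, and over both pairs their counts stand beside 23.5% of all genes higher and 23.9% lower. The summed smooth muscle level was 73.0 to 1014 CPM in the Smox-/- tumors and 26.5 to 114 CPM in the WT tumors, against 888 to 4277 CPM in Smox-/- and 1077 to 1366 CPM in WT AOM-DSS non-tumor tissue, and 9 of 9 of its tested genes were lower in tumors. Genes of neurons and glia were lower for 9 of 11 and those of mature colonocytes for 6 of 6, whereas 6 of 6 Paneth cell genes and 8 of 9 squamous epithelium genes were higher. The pairs differed in some of these counts. Squamous epithelium genes were higher for 6 of 9 in Smox-/- and 2 of 9 in WT, against 11.4% and 16.9% of all genes. Smooth muscle genes were lower for 3 of 9 and 9 of 9, and general epithelial genes for 2 of 10 and 6 of 10, against 13.2% and 17.5%. General epithelial genes were lower for 7 of 10 and higher for 1, with summed levels of 11498 to 15849 CPM in the Smox-/- tumors and 11137 to 13436 CPM in the WT tumors, against 14193 to 21095 CPM and 17247 to 19100 CPM in the non-tumor tissue of each. Genes of the subepithelial mesenchyme, where R-spondins are made, were higher for 2 of 6 and lower for 2, and their sums ran in opposite directions. They were 59.2 to 108 CPM in the Smox-/- tumors, against 120 to 399 CPM in non-tumor tissue, and 59.8 to 97.3 CPM in the WT tumors, against 11.5 to 36.0 CPM. Genes of distal colon position were higher for 4 of 6 in Smox-/- and for 0 of 6 in WT, against 11.4% and 16.9% of all genes. They summed to 487 to 581 CPM in the Smox-/- tumors, against 223 to 326 CPM in non-tumor tissue, and to 558 to 628 CPM in the WT tumors, against 743 to 957 CPM. Fibroblast genes were lower for 2 of 9 and higher for 0, which for the lower ones is near the share of all genes. Leukocyte genes were lower for 2 of 8, skeletal muscle genes for 1 of 10, and endothelial genes did not pass. The part of these markers in the results on the Wnt genes was not tested.

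Wnt6 and Wnt10a are neighbouring genes on chromosome 1 (Wnt6 chr1:74771892-74785322 and Wnt10a chr1:74791516-74804179, plus strand, GRCm38), with 6193 bases and 0 protein-coding genes between them. Both encode ligands that can act through beta-catenin. Wnt6 had 45.5, 127 and 4.32 CPM in the Smox-/- tumors, against 1.55, 1.24 and 0.862 CPM in Smox-/- AOM-DSS non-tumor tissue, a 48.1-fold difference (log2 5.59 ± 1.09 SE, edgeR adjusted p = 0.00439). It had 163, 45.8 and 85.7 CPM in the WT spermidine tumors, against 0.817, 1.78 and 0.984 CPM in their non-tumor tissue, an 81.5-fold difference (log2 6.35 ± 1.13 SE, edgeR adjusted p = 0.000521). Every tumor was above every non-tumor sample of its pair, and Smox-/- tumor replicate 3 lay closest to them. Without Smox-/- tumor replicate 2 the Smox-/- log2 fold change of Wnt6 was 4.35 and the call held.

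Wnt10a was near 0 in most libraries outside the tumors, with a median of 0.0591 CPM. It had 41.9, 76.9 and 2.52 CPM in the Smox-/- tumors, against 0.136, 0.104 and 0.0216 CPM in non-tumor tissue, or 8007 counts against 15 in all. In the WT spermidine tumors it had 101, 23.8 and 57.9 CPM, against 0.0490, 0.0469 and 0 CPM, or 11402 counts against 6. The groups did not overlap, and the log2 fold changes were 8.78 ± 2.18 SE (edgeR adjusted p = 0.00954) in Smox-/- and 10.60 ± 2.40 SE (edgeR adjusted p = 0.0024) in WT. Without Smox-/- tumor replicate 2 the Smox-/- value was 7.92. Outside the tumors the highest level of this gene was 11.3 CPM, in Smox-/- AOM-DSS spermidine non-tumor replicate 1, which also had 25.9 CPM of Wnt6, against 1.13 and 0.757 CPM in the others of its group. In that library both genes lay above Smox-/- tumor replicate 3, as did Wnt10a in Smox-/- untreated replicate 3.

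Wnt16 (chr6:22288227-22298522, plus strand) and Wnt3 (chr11:103774150-103817957, plus strand) followed. Wnt3 is the ligand that Paneth cells make for neighbouring stem cells in the mouse small intestine. Wnt16 had 13.2, 12.0 and 0.468 CPM in the Smox-/- tumors, against 0.0850, 0.0346 and 0 CPM in non-tumor tissue, and 13.3, 2.18 and 5.48 CPM in the WT spermidine tumors, against 0.0490, 0.109 and 0 CPM. Its differences were 195-fold (log2 7.61 ± 1.83 SE, edgeR adjusted p = 0.00854) and 114-fold (log2 6.84 ± 1.76 SE, edgeR adjusted p = 0.00562), with no overlap. Left-out libraries moved these folds by more than 1.5 times without ending the calls, with a log2 value of 8.71 without Smox-/- non-tumor replicate 1, and of 7.77 and 5.97 without WT non-tumor replicate 2 and WT tumor replicate 1. Wnt3 had 7.51, 7.61 and 1.15 CPM in the Smox-/- tumors, against 0.119, 0.104 and 0.0431 CPM (59.0-fold, log2 5.88 ± 1.21 SE, edgeR adjusted p = 0.00487). In the WT spermidine tumors Wnt3 had 6.49, 3.42 and 3.36 CPM, against 0.637, 0.407 and 0.254 CPM (10.1-fold, log2 3.33 ± 1.05 SE, edgeR adjusted p = 0.0179). Again no tumor lay within the non-tumor range of its pair. Over all libraries the sets overlapped. Non-tumor libraries reached 2.36 CPM of Wnt3 and 1.31 CPM of Wnt16, above the levels of Smox-/- tumor replicate 3. The WT call of Wnt3 ended without non-tumor replicate 2 or 3 or tumor replicate 1 (edgeR adjusted p up to 0.0730). DESeq2 gave no adjusted p for Wnt3 in Smox-/-, in WT or over both pairs, so that tool made none of these calls.

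Wnt7a, Wnt7b and Wnt10b were higher at low levels. Wnt7b had 2.95, 3.76 and 0.651 CPM in the Smox-/- tumors, against 0.0680, 0.0518 and 0 CPM (56.2-fold, log2 5.81 ± 2.09 SE, edgeR adjusted p = 0.0476). In the WT spermidine tumors Wnt7b had 1.46, 0.883 and 1.87 CPM, against no count in non-tumor tissue, which with 3 counts set for the group is at least 74.0-fold higher (edgeR adjusted p = 0.021). Wnt7a had 1.20, 4.25 and 0.234 CPM in the Smox-/- tumors, against 0, 0.104 and 0 CPM (50.04-fold, log2 5.65 ± 1.84 SE, edgeR adjusted p = 0.0413). All 3 tumors stood above the 3 non-tumor samples for both genes, but Wnt7a, like Rspo4, passed the filter only through the tumor libraries. Over all 24 non-tumor libraries Wnt7b reached 7.72 CPM, in Smox-/- untreated replicate 3, which is above every tumor. Wnt7a reached 0.421 CPM there, above the lowest tumor. Wnt7a had 2.52, 0.262 and 0.721 CPM in the WT spermidine tumors, against no count, which is at least 60.3-fold higher (edgeR adjusted p = 0.0174). Wnt10b, another ligand of the beta-catenin branch, had 0.601, 3.60 and 0.217 CPM in the Smox-/- tumors, against 0.102, 0.156 and 0.172 CPM (10.2-fold, log2 3.35 ± 1.02 SE, edgeR adjusted p = 0.0231). It had 4.04, 0.393 and 0.737 CPM in the WT spermidine tumors, against 0.163, 0.344 and 0.0952 CPM (8.29-fold, log2 3.05 ± 1.0 SE, edgeR adjusted p = 0.0223). The weakest tumor of each genotype lay just above its non-tumor samples for Wnt10b.

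These low-level calls ended when single libraries were left out. No left-out library moved the fold of Wnt7b by more than 1.5 times in either genotype, with log2 values of 5.33 to 6.39 in Smox-/-. In Smox-/- mice the calls of Wnt7a and Wnt7b ended when any library other than tumor replicate 3 was left out (edgeR adjusted p up to 0.143 and 0.138), and that of Wnt10b without tumor replicate 2 or any non-tumor replicate (up to 0.286, with a log2 value of 1.51 without tumor replicate 2). The log2 value of Wnt7a was 4.25 without Smox-/- tumor replicate 2, and in the Smox-/- non-tumor group all 6 of its counts came from replicate 2. In WT mice the call of Wnt7b ended without any non-tumor replicate (up to 0.0683), that of Wnt7a without tumor replicate 1 or non-tumor replicate 2 (up to 0.0562), and that of Wnt10b without tumor replicate 1 or non-tumor replicate 1 or 3 (up to 0.281, with a log2 value of 1.44 without tumor replicate 1 and of 3.68 without non-tumor replicate 2). DESeq2 did not call Wnt7a in Smox-/- mice. Over both pairs all 3 genes were called under every alternative that tested them, and Wnt10b was not tested under a filter of 1 CPM in 3 libraries.

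**Figure D3:**
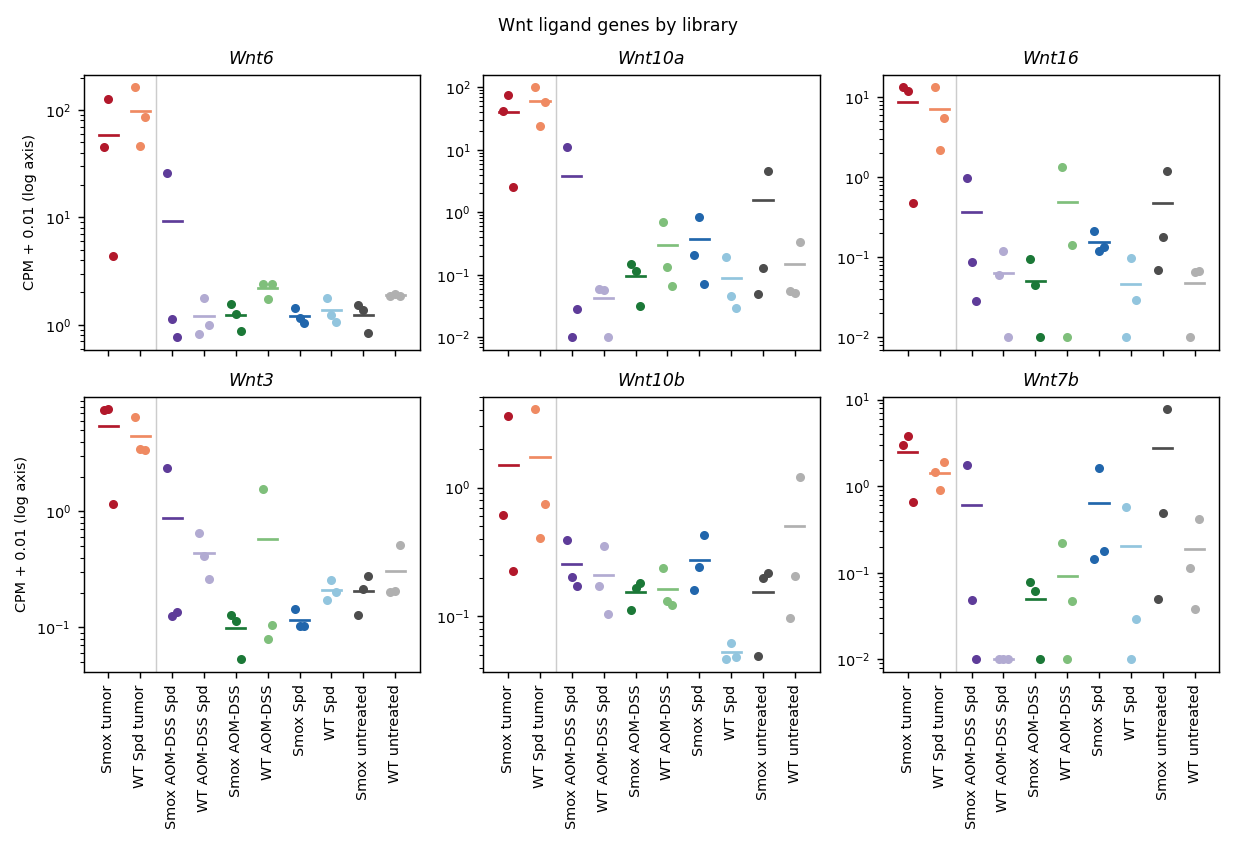
CPM of 6 Wnt ligands in every library on a log axis (CPM plus 0.01), with points for the 3 libraries of each group and a line at their mean. The tumor groups stand left of the grey line, and the highest points to the right of it for Wnt6 and Wnt10a belong to Smox-/- AOM-DSS spermidine non-tumor replicate 1.

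Wnt5b and Wnt8b passed the test in WT mice. Wnt5b, a ligand linked mostly to signalling without beta-catenin, had 7.28, 2.76 and 7.11 CPM in the WT spermidine tumors, against 1.01, 1.28 and 0.286 CPM (6.56-fold, log2 2.71 ± 0.63 SE, edgeR adjusted p = 0.00282). In the Smox-/- tumors it had 3.71, 4.42 and 1.02 CPM, against 1.04, 1.75 and 0.819 CPM, where the groups overlapped (edgeR adjusted p = 0.101). Over both pairs Wnt5b was called higher (log2 2.03). Wnt8b ran the other way in WT, with 0.0986, 0.442 and 0.107 CPM in the tumors, against 1.44, 1.42 and 3.97 CPM (10.4-fold lower, log2 −3.38 ± 1.19 SE, edgeR adjusted p = 0.0317). That call ended without WT tumor replicate 1 or 3 or non-tumor replicate 3 (edgeR adjusted p up to 0.116), and the log2 value was −2.72 without non-tumor replicate 3 and −4.44 without tumor replicate 2. In Smox-/- mice Wnt8b had 0.0733, 0.0924 and 0.384 CPM in the tumors, against 0.119, 0.0691 and 0.0431 CPM, with overlapping groups (edgeR adjusted p = 0.499).

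Wnt9b, which lies 24328 bases from Wnt3 on chromosome 11 with 0 protein-coding genes between them, was called over both pairs alone (7.85-fold, edgeR adjusted p = 0.0235). It had 0.264, 0.554 and 0.0167 CPM in the Smox-/- tumors, against 0.0510, 0.0864 and 0 CPM, and 0.427, 0.0818 and 0.153 CPM in the WT spermidine tumors, against 0.0490, 0 and 0 CPM. Smox-/- tumor replicate 3 lay within the non-tumor range, and the WT groups were apart. Those levels came from 55 counts against 8 in Smox-/- and 41 against 3 in WT, for which the ratio of WT levels was 11.4 with a 95% counting interval of 3.65 to 57.8. The call ended without Smox-/- tumor replicate 2, Smox-/- non-tumor replicate 3, WT tumor replicate 1 or WT non-tumor replicate 2 or 3 (edgeR adjusted p up to 0.0736), and the fitted log2 value was 4.63 without WT non-tumor replicate 1, against 2.97 with it.

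Among the other ligands, Wnt2b, Wnt4, Wnt5a, Wnt9a and Wnt11 did not pass the test in any of these tumor comparisons. Wnt5a, the main ligand of signalling without beta-catenin, was at 3.22 to 17.8 CPM (median 12.0) in the 6 tumors, against 1.40 to 28.7 CPM (median 5.74) in the 24 non-tumor libraries. Wnt4 was at 0.967 to 4.00 CPM (median 1.38), against 0.540 to 16 CPM (median 2.49). The ranges of both overlapped widely. Of the genes with too few counts, Wnt3a was at 0 in all 6 tumors and in 20 of 24 non-tumor libraries, and Wnt8a in all 6 tumors and in 23 of 24. Wnt1 was at 0 in 4 of 6 tumors and in 24 of 24 non-tumor libraries, and Wnt2 reached at most 0.231 CPM in tumors and 0.190 CPM elsewhere.

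Among the Frizzled receptors, Fzd6 and Fzd10 were higher and Fzd5 and Fzd8 lower in the tumors of both genotypes. Fzd10 (chr5:128600844-128604093, plus strand) had 8.45, 20.5 and 0.501 CPM in the Smox-/- tumors, against 0.408, 0.225 and 0.0647 CPM (41.4-fold, log2 5.37 ± 1.31 SE, edgeR adjusted p = 0.00898). In the WT spermidine tumors it had 20.8, 5.43 and 11.7 CPM, against 0.0980, 0.203 and 0.0635 CPM (98.2-fold, log2 6.62 ± 1.40 SE, edgeR adjusted p = 0.00157). No tumor overlapped with its non-tumor group, though Smox-/- tumor replicate 3 came near. Over all libraries the sets overlapped, since the 24 non-tumor ones reached 4.04 CPM, above the 0.501 CPM of that tumor. The Smox-/- call ended without tumor replicate 2 (log2 4.24, edgeR adjusted p = 0.0521), while the log2 value was 6.06 without Smox-/- non-tumor replicate 1, and 7.21 in WT without non-tumor replicate 2.

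Fzd6 had 25.6, 32.7 and 19.4 CPM in the Smox-/- tumors, against 14.9, 15.6 and 11.8 CPM (1.84-fold, log2 0.88 ± 0.31 SE, edgeR adjusted p = 0.0407). It had 29.3, 26.3 and 33.1 CPM in the WT spermidine tumors, against 19.3, 14.9 and 11.4 CPM (1.94-fold, log2 0.96 ± 0.31 SE, edgeR adjusted p = 0.02). The difference was small beside that of Fzd10, but the groups were separate. The Smox-/- call ended when any library other than tumor replicate 3 was left out (edgeR adjusted p up to 0.175), and the WT call without tumor replicate 3 or non-tumor replicate 2 or 3 (up to 0.0919).

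Fzd5 (chr1:64730558-64737751, minus strand), a receptor of the intestinal epithelium that Paneth cells need in mice, had 53.0, 65.4 and 84.0 CPM in the Smox-/- tumors, against 100.1, 104 and 126 CPM (1.63-fold lower, log2 −0.71 ± 0.26 SE, edgeR adjusted p = 0.0493). In the WT spermidine tumors it had 43.7, 79.1 and 44.9 CPM, against 124, 147 and 123 CPM (2.35-fold lower, log2 −1.23 ± 0.26 SE, edgeR adjusted p = 0.00158). Over all libraries the 6 tumors had 43.7 to 84.0 CPM and the 24 non-tumor libraries 83.7 to 187 CPM, so the sets met only at their edges. The Smox-/- call ended when any library other than tumor replicate 3 was left out (edgeR adjusted p up to 0.219). Fzd8 had 6.97, 4.90 and 8.63 CPM in the Smox-/- tumors, against 14.5, 19.1 and 13.2 CPM (2.28-fold lower, log2 −1.19 ± 0.25 SE, edgeR adjusted p = 0.00504). It had 4.47, 6.28 and 4.45 CPM in the WT spermidine tumors, against 12.2, 13.1 and 17.9 CPM (2.84-fold lower, log2 −1.50 ± 0.25 SE, edgeR adjusted p = 0.000378). Tumors lay below every non-tumor sample of their pair, and the Fzd8 calls held under every alternative tried.

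Fzd7, a receptor of intestinal stem cells in mice, had 44.6, 29.9 and 22.1 CPM in the Smox-/- tumors, against 7.93, 12.7 and 7.76 CPM (3.40-fold, log2 1.77 ± 0.38 SE, edgeR adjusted p = 0.00576). The WT spermidine tumors had 27.8, 31.0 and 27.4 CPM, against 19.6 to 26.4 CPM in their non-tumor tissue, which did not pass the test (edgeR adjusted p = 0.493). Smox-/- AOM-DSS non-tumor tissue had the lowest Fzd7 mean of the 10 groups, at 2.09 CPM per kb, against 4.35 CPM per kb in untreated Smox-/- colon. Over all libraries the 6 tumors had 22.1 to 44.6 CPM of Fzd7 and the 24 non-tumor libraries 7.48 to 42.5 CPM, so the sets overlapped. Fzd3 and Fzd9 passed the test in WT mice. Fzd3, which acts in planar polarity and axon guidance, had 3.75, 2.21 and 3.16 CPM in the WT spermidine tumors, against 0.359, 0.407 and 0.413 CPM (7.71-fold, log2 2.95 ± 0.65 SE, edgeR adjusted p = 0.00202). In the Smox-/- tumors it had 2.49, 3.49 and 1.10 CPM, against 1.21, 2.09 and 1.85 CPM, with overlap (edgeR adjusted p = 0.595). Fzd9 had 2.79, 0.982 and 1.30 CPM in the WT spermidine tumors, against 0.180, 0.188 and 0.444 CPM (6.39-fold, log2 2.68 ± 0.85 SE, edgeR adjusted p = 0.0186), and 2.27, 3.03 and 0.518 CPM in the Smox-/- tumors, against 1.39, 0.449 and 0.970 CPM (edgeR adjusted p = 0.33). The WT call of Fzd9 ended without tumor replicate 1 or non-tumor replicate 1 or 2 (edgeR adjusted p up to 0.0878). Over both pairs Fzd3, Fzd7 and Fzd9 were called higher, with log2 values of 1.704, 1.055 and 1.863. For Fzd3 and Fzd9 the 6 tumors lay within the range of the 24 non-tumor libraries. The median of Fzd3 was 2.83 CPM in tumors, against 2.65 CPM elsewhere, and that of Fzd9 was 1.79 CPM, against 0.447 CPM. The highest Fzd9 group mean was in Smox-/- AOM-DSS spermidine non-tumor tissue, at 1.36 CPM per kb. The Smox-/- tumors had 0.847 and the WT spermidine tumors 0.739 CPM per kb, above the other non-tumor groups. Whether the tumor effect differed between the pairs was tested for each gene, and none passed.

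Fzd4 was lower over both pairs alone (1.42-fold lower, log2 −0.50, edgeR adjusted p = 0.0392), with 4.77, 9.10 and 7.03 CPM in the Smox-/- tumors, against 10.8, 10.7 and 7.61 CPM, and 4.83, 7.08 and 8.14 CPM in the WT spermidine tumors, against 8.66, 11.7 and 8.70 CPM. The groups overlapped in Smox-/- and were apart in WT. That call ended without any of 8 of the 12 libraries, the exceptions being Smox-/- tumor replicate 2, Smox-/- non-tumor replicate 3 and WT tumor replicates 2 and 3 (edgeR adjusted p up to 0.126). Fzd1 and Fzd2 did not pass any of the tumor comparisons.

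The co-receptors moved in opposite directions. Lrp5 had 203, 195 and 169 CPM in the Smox-/- tumors, against 113, 90.7 and 89.2 CPM (1.94-fold, log2 0.96 ± 0.30 SE, edgeR adjusted p = 0.0256). The WT spermidine tumors had 181, 197 and 183 CPM, against 157, 125 and 142 CPM (1.32-fold, edgeR adjusted p = 0.302). Tumors were the higher in both pairs, and over both pairs Lrp5 passed the test (1.60-fold, edgeR adjusted p = 0.011). Lrp6 had 76.6, 109 and 95.4 CPM in the WT spermidine tumors, against 150.4, 153 and 171 CPM (1.69-fold lower, log2 −0.76 ± 0.19 SE, edgeR adjusted p = 0.00398). In Smox-/- tumors it had 91.5, 97.2 and 106 CPM, against 108, 111 and 122 CPM (1.16-fold lower, edgeR adjusted p = 0.416). Over both pairs Lrp6 was called lower (log2 −0.48). The Smox-/- call of Lrp5 ended without tumor replicate 1 or 2 or non-tumor replicate 2 or 3 (edgeR adjusted p up to 0.0866).

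**Figure D4:**
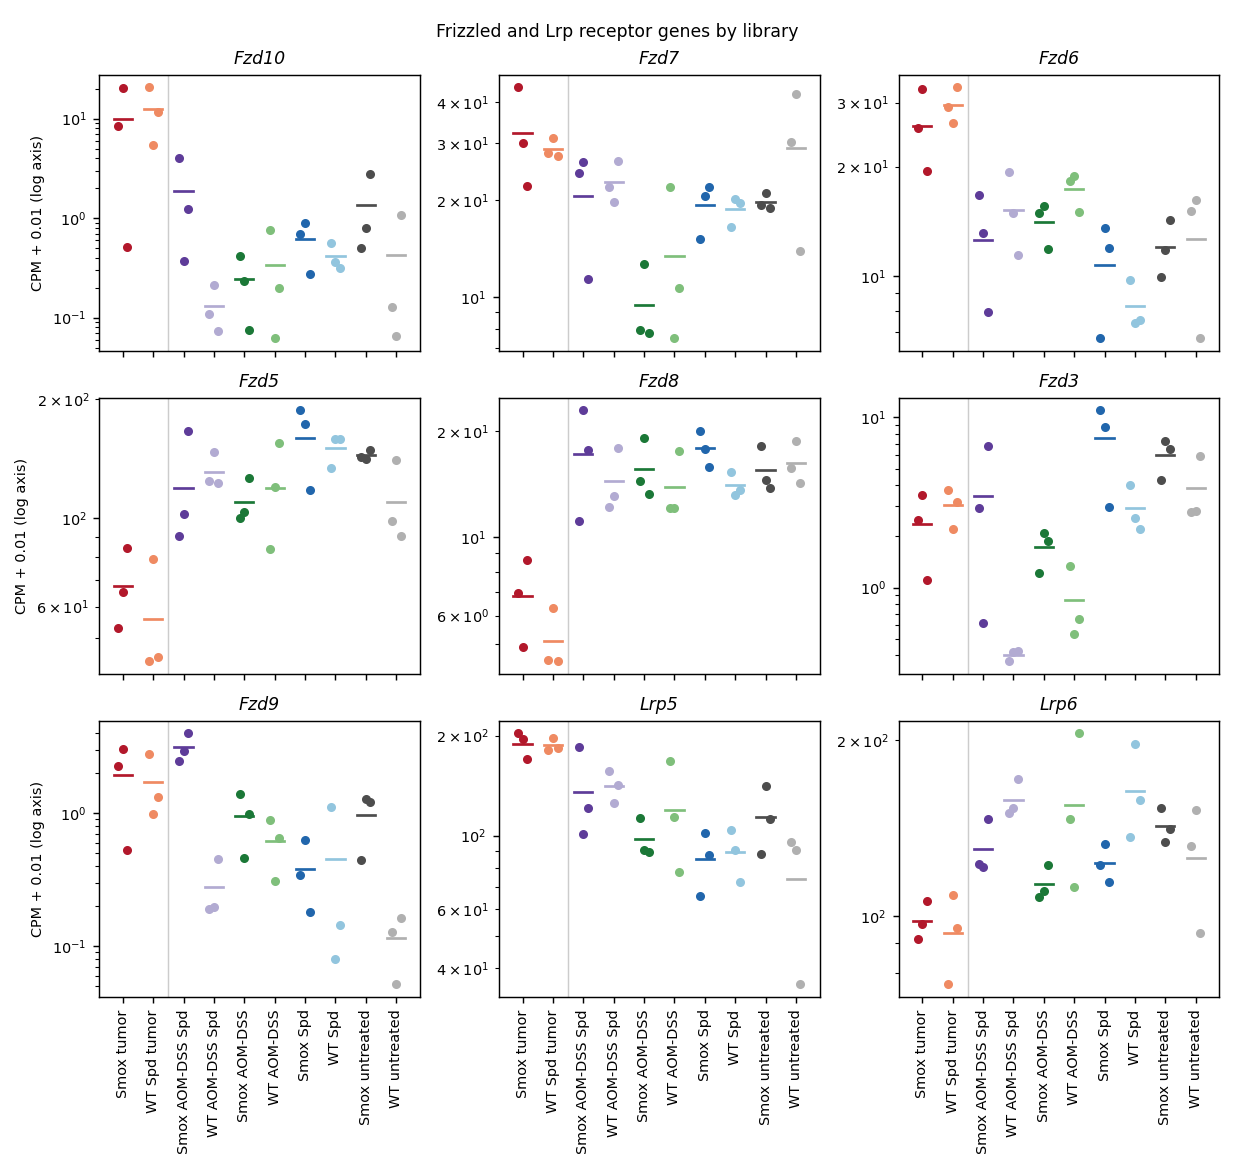
CPM of 7 Frizzled receptors and of Lrp5 and Lrp6 in every library on a log axis (CPM plus 0.01), with points for the 3 libraries of each group and a line at their mean. Fzd10 spans the widest range, with 0.501 to 20.8 CPM in tumors and 0.0523 to 4.04 CPM in non-tumor libraries. Fzd5 and Fzd8 sit lower left of the grey line than right of it.

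The Sfrp genes, which encode secreted Wnt antagonists of mostly stromal origin, did not move as a family. Sfrp2 had 5.25, 8.31 and 16.4 CPM in the Smox-/- tumors, against 1.04, 1.11 and 0.560 CPM (11.04-fold, log2 3.46 ± 0.99 SE, edgeR adjusted p = 0.0172). The WT spermidine tumors had 0.888, 4.25 and 0.599 CPM, against 3.48, 2.13 and 0.794 CPM, and there the groups overlapped (edgeR adjusted p = 0.909). The Smox-/- call ended without tumor replicate 2 or non-tumor replicate 2 or 3 (edgeR adjusted p up to 0.0675). Over both pairs Sfrp2 was called at 3.14-fold (edgeR adjusted p = 0.0412), which rested on the Smox-/- samples and ended without any of 8 of the 12 libraries (log2 0.97 without WT tumor replicate 2, edgeR adjusted p up to 0.217). Sfrp1 had 5.35, 5.33 and 16.5 CPM in the Smox-/- tumors, against 16.4, 42.7 and 6.90 CPM, and 0.395, 3.48 and 1.96 CPM in the WT spermidine tumors, against 3.38, 2.89 and 1.65 CPM. Its groups overlapped in both pairs, and neither passed (edgeR adjusted p = 0.163 and 0.644). Sfrp4 and Sfrp5 did not pass either.

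Rspo1, Rspo2 and Rspo3 were lower in tumors over both pairs, while Rspo4 had more counts there. Rspo3 (chr10:29452416-29535867, minus strand), the main R-spondin of the mesenchyme under mouse colon crypts, had 0.0329, 0.0818 and 0.0767 CPM in the WT spermidine tumors, against 2.22, 0.985 and 0.476 CPM (18.8-fold lower, log2 −4.23 ± 1.05 SE, edgeR adjusted p = 0.00432). In the Smox-/- tumors it had 0.132, 0.108 and 2.15 CPM, against 3.08, 6.91 and 1.38 CPM (4.76-fold lower, log2 −2.25 ± 0.90 SE, edgeR adjusted p = 0.0686). Only Smox-/- tumor replicate 3, the tumor with the highest smooth muscle level, lay within the non-tumor range. Over both pairs the log2 value of Rspo3 was −3.24 (edgeR adjusted p = 0.000719), and −4.58 without that library, while the WT value was −3.46 without non-tumor replicate 1.

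Rspo2 had 0, 0 and 0.0668 CPM in the Smox-/- tumors, against 0.221, 0.950 and 0.323 CPM, or 4 counts against 83 (21.4-fold lower, log2 −4.42 ± 1.05 SE, edgeR adjusted p = 0.00882). The WT spermidine tumors had no count, against 0, 0.125 and 0.0952 CPM, which with 3 counts set for the tumors is at least 4.38-fold lower (edgeR adjusted p = 0.0176). WT non-tumor replicate 1 was also at 0, so those groups met there. Both calls were lost without tumor replicate 1 of the same genotype, that in Smox-/- also without tumor replicate 2, and that in WT also without tumor replicate 3 or non-tumor replicate 2 (edgeR adjusted p up to 0.0545 and 0.0935). The Smox-/- log2 value was −3.54 without non-tumor replicate 2, and without tumor replicate 3 the remaining tumors had no count.

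Rspo1 had 0.0587, 0.0154 and 0.501 CPM in the Smox-/- tumors, against 0.884, 2.06 and 0.517 CPM (6.02-fold lower, edgeR adjusted p = 0.0559). In the WT spermidine tumors it had 2 counts, against 16 in non-tumor tissue, a level 9.56-fold lower with a 95% counting interval of 2.25 to 85.7 (edgeR adjusted p = 0.0891). It was called lower over both pairs (6.87-fold, log2 −2.78, edgeR adjusted p = 0.00856), with log2 values of −4.08 to −2.42 when single libraries were left out, moved by more than 1.5 times without Smox-/- tumor replicate 3 or WT tumor replicate 1.

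Rspo4 was listed at 0 in Smox-/- AOM-DSS non-tumor tissue and had 1 count in that of WT with spermidine. The Smox-/- tumors had 0.117, 0.785 and 0.0167 CPM, or 60 counts, which is at least 16.9-fold higher (edgeR adjusted p = 0.0197). The WT spermidine tumors had 0.526, 0.442 and 0.307 CPM, or 79 counts, a ratio of 66.1 with a 95% counting interval of 11.5 to 2645 (edgeR adjusted p = 0.0168). Every tumor was above its non-tumor samples, at low counts, and since Rspo4 entered the test only through the tumor libraries, these p-values are no independent support. Tumor replicate 2 held 51 of the 60 Smox-/- counts, and without WT non-tumor replicate 1 the remaining non-tumor samples had no count. Those calls ended without Smox-/- tumor replicate 2 or any Smox-/- non-tumor replicate (edgeR adjusted p up to 0.125), and without WT non-tumor replicate 2 or 3 (up to 0.0726).

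**Figure D5:**
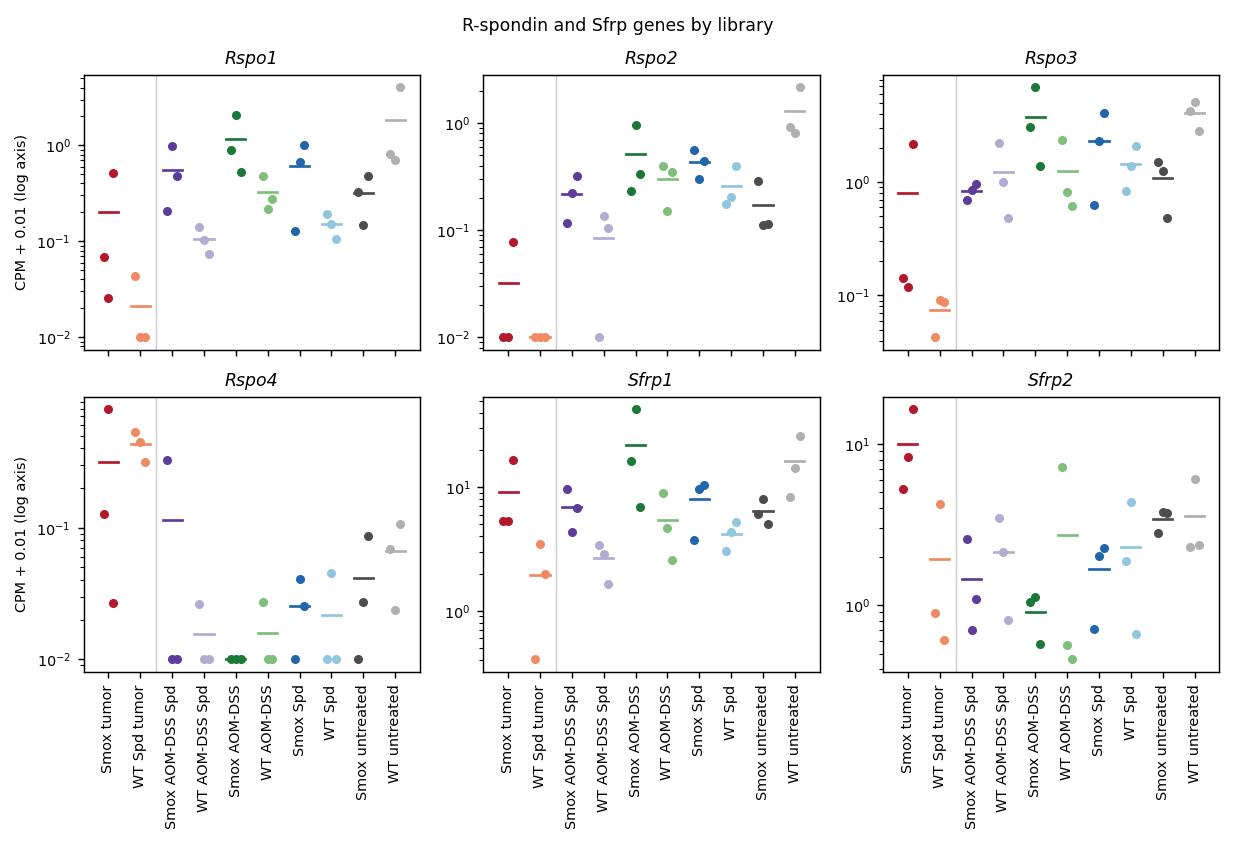
CPM of the 4 R-spondins and of Sfrp1 and Sfrp2 in every library on a log axis (CPM plus 0.01), with points for the 3 libraries of each group and a line at their mean. Rspo3 is at 0.0329 to 2.15 CPM in the tumors, left of the grey line, and Rspo4 is the R-spondin whose points there sit above those of the AOM-DSS non-tumor groups of the same genotype and water.

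Other genes of the pathway were counted from lists of known members. The lists share genes, so their counts overlap. Lgr5, Rnf43, Znrf3, Notum, Axin2, Tcf7 and Lef1 stand in the target list and also in another list. Their counts over both pairs are to be read beside 23.5% of all genes higher and 23.9% lower. Of 17 Wnt target genes, 16 were higher and 0 lower in tumors over both pairs, with a median log2 fold change of 2.70. Axin2, a direct target that feeds back on the pathway, had 371 ± 175 CPM in the tumors, against 34.3 ± 19.3 CPM (SD, n = 6 each; 11.8-fold, edgeR adjusted p = 4.92e-05). Sp5, another direct target, had 82.0 ± 49.5 CPM, against 0.808 ± 0.935 CPM (205-fold, edgeR adjusted p = 2.71e-05). Of 11 other receptors and co-receptors 8 were higher and 1 lower. Lgr6, an R-spondin receptor, had 21.5 ± 14.9 CPM, against 0.0449 ± 0.0420 CPM (402-fold, edgeR adjusted p = 6.87e-05). The ligase Rnf43, which removes Frizzled receptors, had 239 ± 85.5 CPM, against 39.6 ± 11.9 CPM (6.15-fold, edgeR adjusted p = 6.06e-05).

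Of the secreted inhibitors from outside the Sfrp family, 4 of 7 tested were higher and 1 lower. Wif1, which binds Wnt ligands, had 456 ± 303 CPM in the tumors, against 1.72 ± 1.92 CPM (283-fold), and Dkk2, which binds Lrp5 and Lrp6, had 70.5 ± 36.9 CPM, against 3.08 ± 4.36 CPM (65.5-fold). Among 4 genes of ligand secretion and inactivation, Notum alone passed. Notum, the enzyme that removes the lipid from Wnt ligands, had 316 ± 230 CPM, against 0.849 ± 1.30 CPM (591-fold, edgeR adjusted p = 6.64e-05). In the intracellular beta-catenin branch 12 of 21 genes were higher and 1 lower. Ctnnb1, which encodes beta-catenin, had 1451 ± 261 CPM, against 943 ± 65.5 CPM (1.53-fold), and Tcf7 had 66.3 ± 28.2 CPM, against 5.52 ± 1.72 CPM (12.2-fold). In the planar polarity branch, 6 of 12 were higher and 2 lower, with Vangl2 at 37.7 ± 14.2 CPM, against 3.08 ± 1.34 CPM (12.8-fold, edgeR adjusted p = 2.4e-05). Prickle3 was lower, at 7.25 ± 0.87 CPM, against 12.4 ± 3.36 CPM (1.66-fold, edgeR adjusted p = 6.59e-05).

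Between the tumor groups, Smox-/- without spermidine against WT with spermidine, edgeR called 0 of the 35 genes and DESeq2 1, and 6 were under 0.05 before adjustment, against 0.0614% of all genes called by edgeR. The smallest adjusted p was that of Rspo3, at 0.470. The share of all genes called by DESeq2 is not given, here or below, so its counts have no background. For the difference of the tumor effect between the pairs edgeR and DESeq2 each called 0, 5 had an unadjusted p under 0.05, and 0.0102% of all genes were called. The smallest adjusted p there was 0.297, for Fzd3. These values do not show that the tumors were alike, since each group had 3 libraries and levels varied widely within a group. The summed ligand level, for example, was 48.6, 102 and 6.59 CPM per kb in the Smox-/- tumors. A difference could not have been assigned either, since the design changes genotype and spermidine together.

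Outside tumors few of these genes passed a test. In WT mice without spermidine, AOM-DSS non-tumor tissue differed from untreated colon in 3 of 35 genes (8.57%), 1 higher and 2 lower, against 6.44% of all genes (1.76% higher and 4.68% lower), which is near the background. Wnt9a had 0.733, 0.174 and 0.207 CPM after AOM-DSS, against 1.27, 1.62 and 3.06 CPM in untreated colon (5.31-fold lower, log2 −2.41 ± 0.66 SE, edgeR adjusted p = 0.0351). Fzd3 had 1.33, 0.523 and 0.639 CPM, against 2.75, 2.82 and 5.93 CPM (4.60-fold lower, log2 −2.20 ± 0.62 SE, edgeR adjusted p = 0.0408). Fzd4, the receptor of Norrin as well as of Wnt ligands, was higher, with 16.6, 11.5 and 11.1 CPM, against 4.07, 5.98 and 8.37 CPM (2.13-fold, log2 1.09 ± 0.28 SE, edgeR adjusted p = 0.0297). No groups overlapped. All 3 calls ended without WT AOM-DSS non-tumor replicate 2 or without WT untreated replicate 3, the library with the skeletal muscle markers. Those of Wnt9a and Fzd3 also ended without AOM-DSS replicate 3, and that of Fzd4 without AOM-DSS replicate 1 or untreated replicate 1 (edgeR adjusted p up to 0.209 for Wnt9a, 0.234 for Fzd3 and 0.107 for Fzd4). In the same comparison 7 of 10 skeletal muscle genes were lower, and 4 of 11 genes of neurons and glia, whose summed level was 72.4, 59.2 and 72.2 CPM after AOM-DSS, against 151, 121 and 449 CPM in untreated colon. The part of these markers was not tested. The log2 value of Wnt9a was −3.36 without AOM-DSS replicate 1.

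Fzd3 recurred in the WT mice with spermidine. It had 0.359, 0.407 and 0.413 CPM in AOM-DSS non-tumor tissue, against 3.97, 2.55 and 2.19 CPM in WT mice given spermidine alone (7.37-fold lower, log2 −2.88 ± 0.65 SE, edgeR adjusted p = 0.0266), and was the 1 gene of the 35 called, against 1.91% of all genes (1.48% lower). In the Smox-/- mice of the same treatment it had 2.93, 0.612 and 6.76 CPM, against the same WT non-tumor libraries (8.72-fold higher, log2 3.12 ± 0.66 SE, edgeR adjusted p = 0.0444), again as the 1 gene called, against 0.251% of all genes (0.169% higher). Both comparisons, and the WT tumor comparison above, used the same WT AOM-DSS spermidine non-tumor samples, whose Fzd3 levels were low and close together. The first call ended without any 1 of its 6 libraries (edgeR adjusted p up to 0.153). The second ended without any of the 3 WT libraries or without Smox-/- replicate 3 (log2 2.19, edgeR adjusted p up to 0.303), and held without Smox-/- replicate 1. In the other Smox-/- groups Fzd3 had 11, 8.79 and 2.95 CPM with spermidine and 4.26, 7.22 and 6.46 CPM untreated.

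Between untreated mice, Fzd9 had 0.436, 1.26 and 1.20 CPM in Smox-/- colon, against 0.117, 0.0416 and 0.154 CPM in WT colon (9.26-fold, log2 3.21 ± 0.88 SE, edgeR adjusted p = 0.0365). The groups were apart, and it was the 1 gene of 35 called, against 5.95% of all genes (2.63% higher). The call held without Smox-/- replicate 1 and ended without any of the other 5 libraries (edgeR adjusted p up to 0.147).

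No gene was called by edgeR in the remaining comparisons. Shares of all genes are those of edgeR, and the DESeq2 counts cannot be read against them. For AOM-DSS non-tumor tissue against its own control in Smox-/- mice, an unadjusted p under 0.05 was seen for 8 genes without spermidine and for 8 with it, DESeq2 called 1 and 3, and edgeR called 0.0767% and 0.0205% of all genes. The smallest adjusted p values were 0.209 for Fzd3 without spermidine and 0.124 for Fzd4 with it. For spermidine against none in AOM-DSS non-tumor tissue, 10 genes in Smox-/- and 1 in WT were under 0.05 before adjustment, DESeq2 called 1 and 0, and edgeR called 0% of all genes in both. The Smox-/- group with spermidine holds the library with high Wnt6 and Wnt10a, and Wnt6 had its smallest adjusted p, 0.231. Without AOM-DSS, spermidine gave 2 genes in Smox-/- and 6 in WT at an unadjusted p under 0.05, with 0 and 3 by DESeq2 and 0% and 0.00511% of all genes by edgeR. For Smox-/- against WT, 4 genes with spermidine alone and 6 in AOM-DSS non-tumor tissue had an unadjusted p under 0.05, with 0 and 1 by DESeq2 and 0.0818% and 0.0665% of all genes by edgeR.

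Whether the effect of AOM-DSS or of spermidine differed between the genotypes was tested directly. Shares of all genes are again those of edgeR, so the DESeq2 counts have no background. For AOM-DSS without spermidine edgeR called 0 genes of the 35 and 0% of all genes, DESeq2 called 5, and 10 had an unadjusted p under 0.05, with the smallest edgeR adjusted p at 0.0785 for Sfrp1. For spermidine without AOM-DSS, a comparison added after the data had been seen, edgeR called 0 of the 35 and 2.91% of all genes, DESeq2 called 4, and 7 had an unadjusted p under 0.05, with the smallest edgeR adjusted p at 0.0647 for Rspo1.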

How the data were processed

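Total RNA was extracted with RNeasy and made into libraries with the NEBNext Ultra II Directional kit, per the labels' protocols. The submitters' processing notes name fastp, Salmon, DESeq2 and GRCm38, with no settings. The deposited table holds the authors' estimated counts per gene, already whole numbers, for 30 libraries; whether counting used strand is not given in the sources used here. Exons of Fzd5, Fzd6, Rspo3, Sfrp2, Wnt5a, Wnt7b and Wnt11 overlap a gene on the other strand, so their values are uncertain to that extent.

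The tests used edgeR 4.0.16 (R 4.3.3) on the counts, with TMM scaling, genes kept by filterByExpr (minimum count 10, total 15) and 1 robust quasi-likelihood model of 10 group means with 20 residual degrees of freedom. Adjustment was by Benjamini-Hochberg across 19558 genes, with a threshold of 0.05. CPM is scaled by TMM, and lengths are merged exons of GENCODE for GRCm38. Log2 fold changes are given with standard errors (SE). Intervals on counts cover counting error only. A group with no counts was set at 3 counts in all to give a bound. Libraries were checked for identical values, and 0 pairs were found. The model was checked on simulated data with 200 changed genes.

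The symbol rule and the gene lists were chosen with earlier results of these data known. Per-sample values and statistics are given for family members called in any comparison and for the highest of each family per kb, and pathway genes were named from the called members of each list with the smallest adjusted p. Promoter windows came from RefSeq for GRCm38. Alternatives were RLE scaling, DESeq2 1.42.0, other filters, a model of the compared groups alone, leaving out each library, and leaving out 2 atypical libraries together.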

Additional observations from a re-analysis of the deposited data

How the results depend on the processing

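Over 908 settings in which a called gene could be tested again, 775 kept their direction and call, 133 kept the direction without passing the threshold and 0 changed direction. The calls in the tumor comparisons of Wnt6, Wnt10a, Wnt16 and Fzd8 held in both genotypes under every alternative tried. With a filter of 1 CPM in 3 libraries the tumor calls numbered 13 in Smox-/-, 16 in WT and 19 over both pairs, since Rspo1, Rspo2, Rspo4, Wnt9b and Wnt10b were then not tested. In Smox-/- they numbered 12 with no filter and 11 with a model of the compared groups alone. How many of all genes were called under each alternative was not counted, so these numbers of calls have no background. With libraries left out in turn, the number of called genes ran from 6 to 19 for the Smox-/- tumors, from 12 to 19 for the WT tumors and from 21 to 24 over both pairs. It ran from 0 to 4 for AOM-DSS in WT, from 0 to 2 for Smox-/- against WT both untreated and in AOM-DSS spermidine non-tumor tissue, from 0 to 1 for the differences of the AOM-DSS and spermidine effects, and was 0 throughout in the other comparisons.

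DESeq2 called 9 genes for AOM-DSS in WT, 2 for AOM-DSS with spermidine in WT, 1 and 3 for AOM-DSS in Smox-/- without and with spermidine, 1 for spermidine in Smox-/- AOM-DSS non-tumor tissue and 3 for spermidine in untreated WT mice. It called 4, 1 and 6 for Smox-/- against WT untreated, in AOM-DSS non-tumor tissue and in AOM-DSS spermidine non-tumor tissue, 1 between the tumor groups, 5 for the difference of the AOM-DSS effect and 4 for that of the spermidine effect. With no filter on low counts there was 1 call for AOM-DSS in WT, and 0 for Smox-/- against WT both untreated and in AOM-DSS spermidine non-tumor tissue. A model of the compared groups alone gave 0 for those 3 comparisons, 6 for AOM-DSS with spermidine in WT and 1 for the difference of the spermidine effect. Leaving out WT untreated replicate 3 together with Smox-/- AOM-DSS spermidine non-tumor replicate 1 gave 1 call for AOM-DSS in WT, 3 for AOM-DSS with spermidine in WT and 0 between untreated mice. The share of all genes called by DESeq2 or under the other alternatives is not given, so their counts cannot be read as particular to these genes. The cause of these differences was not tested. No paired analysis was possible because the labels number each sample uniquely and tie no tumor to a non-tumor sample. Wnt1, Wnt2, Wnt3a and Wnt8a had too few counts at this depth to be tested.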

Other observations

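Outside the tumors, some Wnt ligands stood high in single libraries. Wnt7b was at 7.72 CPM and Wnt10a at 4.56 CPM in Smox-/- untreated replicate 3, the library with a summed squamous epithelium marker level of 2709 CPM. In the Smox-/- AOM-DSS spermidine non-tumor group, replicate 1 was the highest of its group in 14 of the 17 genes that were higher in tumors over both pairs, and the lowest in 5 of the 7 that were lower. WT AOM-DSS non-tumor replicate 1 was the highest of its group in 15 of those 17 genes, with a summed Paneth cell marker level of 209 CPM, against 7.45 and 7.01 CPM in the others of its group. These libraries were not grouped or tested on these values, and the part of the markers in them was not tested.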
